A study of Mus musculus with 12 samples.

Results

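The 33 genes described here are markers of the endothelium, the cell layer that lines blood and lymph vessels. They form a given list of names, which was chosen with earlier results of these data known. All 33 were in the deposited table of 24452 genes, and all 33 had a mean RPKM (reads scaled to gene length and to the reads of the library) of at least 0.5 over the libraries, as 12249 genes did.

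Brown adipose tissue is densely vascularised, and its capillaries deliver oxygen and fatty acids to the heat-producing adipocytes. Endothelial cells are held together by adhesion proteins such as VE-cadherin, and they grow and survive through receptor kinases that read VEGF and angiopoietin ligands made by neighbouring cells. Transcription factors of the ETS and SOXF families keep the endothelial gene programme on. ERRα and ERRγ are nuclear receptors known for driving mitochondrial genes in brown adipocytes.

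RNA was sequenced from brown adipose tissue of male mice of the labelled strain C57BL/6J Bom, 12 weeks old and housed at 30 °C, in 4 groups of 3 libraries. All mice carried floxed ERRα and ERRγ alleles. In the ERRαγAd-/- mice (ERRKO below) Cre recombinase under the adiponectin promoter removed both genes in adipocytes, while wild type mice (WT) were floxed littermates without Cre, so the endothelial cells themselves were not the target of the deletion. Mice received CL316,243 (CL below), which activates β3-adrenergic receptors, at 1 mg/kg, or PBS, by injection into the peritoneum on each of 10 days, from an age of 10 to 11 weeks, and tissue was taken 24 hours after the last dose. The 4 groups are thus WT_PBS, WT_CL, ERRKO_PBS and ERRKO_CL. Whether the 3 libraries of a group came from separate animals is not stated in the labels, so p-values measure only the spread between these samples, which may be technical.

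Between 8478310 and 9727167 reads per library were recovered for the WT groups and between 12468001 and 13263567 for the ERRKO groups, and each endothelial gene had from 54 (Tal1) to 9581 (Aqp1) reads in a library. Esrra, which encodes ERRα, stood at 41.6 to 83.3 scaled RPKM in the 6 WT libraries and at 5.25 to 8.89 in the 6 ERRKO libraries. Esrrg, which encodes ERRγ, stood at 4.41 to 8.26 in WT_PBS and 2.29 to 4.71 in ERRKO_PBS, which overlapped, and at 5.63 to 8.15 in WT_CL and 6.40 to 8.14 in ERRKO_CL. The table gives 1 value per gene, so reads from exons outside the deletion are included. On the deposited RPKM scale the median gene was higher in ERRKO by 0.53 (log2) under PBS and by 0.63 under CL, and lower under CL by 0.26 in WT and by 0.16 in ERRKO. Levels below are therefore scaled RPKM, each library divided by its median ratio to the other libraries, which brings the median gene to between 0.00 and 0.03 in each comparison, and values on the deposited scale are given beside the main results.

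Over the 12 libraries the endothelial genes spanned from a mean of 135 scaled RPKM for Aqp1, the water channel aquaporin 1, to 1.17 for Tal1, a transcription factor shared with blood cell precursors. Cdh5, which encodes VE-cadherin, the defining adhesion protein of endothelial junctions, came next at 60.0. Cldn5, the tight junction protein claudin 5, at 45.9, and Pecam1, the adhesion protein CD31, at 45.0, followed and did not differ beyond their spread, since Cldn5 alone ran from 25.5 to 83.3 over the libraries. Egfl7, a secreted vessel matrix protein, had a mean of 42.5, Ramp2, part of the adrenomedullin receptor, 30.3, and Esam, a junctional adhesion molecule, 30.1. The VEGF receptor gene Kdr had a mean of 26.1, the orphan angiopoietin-pathway receptor gene Tie1 25.6 and the angiopoietin receptor gene Tek 13.2. At the low end, Vwf, the clotting factor stored in endothelial granules, had a mean of 2.81 and Flt4, the VEGF-C receptor typical of lymphatic vessels, 1.85. All 33 markers were thus measured in this tissue, and Aqp1 stood above 96.8% of the genes tested.

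ETS factors such as Erg and Fli1, both on the list, are known to bind a GGAA core in the promoters of endothelial genes, so the promoters of genes that were called in the comparisons are shown first. RefSeq windows of 300 bases, from 250 before to 50 after the transcript start (GRCm38.p6), were found for 18 of the 33 genes, in 23 windows. Those of Emcn, Tie1 and Myct1, which were lower in ERRKO_PBS, and of Eng, Robo4 and Aqp1, which were lower in WT_CL, are shown for the calls made below. Capitals mark the ETS-type letters AGGAAG and CGGAAG and the ERR-type letters AAGGTCA on either strand, and the sequences run 5′ to 3′ on the strand of the gene. Emcn lies in chr3:137340828-137341127 on the plus strand and Tie1 in chr4:118489800-118490099 on the minus strand. Myct1 lies in chr10:5593478-5593777, Eng in chr2:32646345-32646644, Robo4 in chr9:37401722-37402021 and Aqp1 in chr6:55336049-55336348, all on the plus strand.
Emcn: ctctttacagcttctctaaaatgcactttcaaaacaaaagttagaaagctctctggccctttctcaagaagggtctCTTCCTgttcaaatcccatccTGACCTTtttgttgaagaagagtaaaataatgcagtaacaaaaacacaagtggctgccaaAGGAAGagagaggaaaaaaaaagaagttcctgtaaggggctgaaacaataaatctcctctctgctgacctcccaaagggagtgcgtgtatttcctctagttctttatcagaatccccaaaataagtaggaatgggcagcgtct
Tie1: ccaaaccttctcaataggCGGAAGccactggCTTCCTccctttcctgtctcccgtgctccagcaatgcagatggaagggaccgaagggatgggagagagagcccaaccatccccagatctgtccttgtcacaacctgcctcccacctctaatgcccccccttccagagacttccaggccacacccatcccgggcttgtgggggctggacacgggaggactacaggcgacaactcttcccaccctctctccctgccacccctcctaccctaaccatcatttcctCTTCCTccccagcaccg
Myct1: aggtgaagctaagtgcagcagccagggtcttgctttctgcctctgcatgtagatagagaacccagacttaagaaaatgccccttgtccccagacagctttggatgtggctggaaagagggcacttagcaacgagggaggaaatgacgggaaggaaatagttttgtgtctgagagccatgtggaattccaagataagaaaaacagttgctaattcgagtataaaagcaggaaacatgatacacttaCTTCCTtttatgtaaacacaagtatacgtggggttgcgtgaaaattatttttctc
Eng: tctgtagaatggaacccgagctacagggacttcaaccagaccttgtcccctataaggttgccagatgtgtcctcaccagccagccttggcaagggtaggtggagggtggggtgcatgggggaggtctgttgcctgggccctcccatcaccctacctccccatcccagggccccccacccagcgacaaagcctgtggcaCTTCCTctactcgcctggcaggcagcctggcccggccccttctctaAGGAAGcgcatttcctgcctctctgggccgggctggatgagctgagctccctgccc
Robo4: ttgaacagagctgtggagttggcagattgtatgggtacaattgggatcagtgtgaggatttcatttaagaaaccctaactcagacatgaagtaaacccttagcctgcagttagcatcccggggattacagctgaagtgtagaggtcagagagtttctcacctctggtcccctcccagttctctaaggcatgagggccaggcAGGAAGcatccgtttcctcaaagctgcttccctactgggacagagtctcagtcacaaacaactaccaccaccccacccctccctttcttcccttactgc
Aqp1: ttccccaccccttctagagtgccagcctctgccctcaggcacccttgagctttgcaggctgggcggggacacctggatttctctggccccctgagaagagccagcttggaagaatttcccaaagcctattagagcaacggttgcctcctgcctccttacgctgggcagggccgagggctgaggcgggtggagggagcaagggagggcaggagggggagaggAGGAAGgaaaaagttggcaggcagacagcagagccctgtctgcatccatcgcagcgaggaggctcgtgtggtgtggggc
AGGAAG on either strand was in 13 of the 23 endothelial windows (56.5%) and in 35.4% of the 32851 RefSeq windows of the same length. CGGAAG was in 1 endothelial window, that of Tie1, and in 16.9% of all windows. AAGGTCA was in 1 endothelial window, that of Emcn, and in 4.72% of all windows. The 6 windows shown all hold AGGAAG, and not every called gene does. Of 7 genes with a window that fell in ERRKO_PBS, 6 had AGGAAG in at least 1 window and Tek had none, as had 2 of 3 Erg windows and 1 of 3 Egfl7 windows. Of 11 genes with a window that did not fall there, 6 had AGGAAG, and Dll4, which fell in WT_CL, had none. These matches are letters in a window and describe no binding.

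The WT_PBS libraries differed among themselves before any comparison. Replicate 1 was the highest of its group in 25 of the 33 endothelial genes. Its median difference from the WT_PBS mean was 0.21 (log2), against -0.24 in replicate 3. WT_PBS replicate 3 was the lowest of its group in 26 of the 33 endothelial genes, and the sum of their scaled RPKM was 685 there against 1017 in replicate 1 and 875 in replicate 2. It also had the highest summed level of 9 adipocyte genes in its group, 18188 against 12631 and 12546, and the lowest sum of 12 pericyte genes, 191 against 266 and 268. Fabp4 was by far the largest of the 9 adipocyte genes. Its mean over the libraries was 12532 deposited RPKM, against 1326 for Adipoq, the next. The coefficient of variation of an endothelial gene had a median of 21.4% in WT_PBS and of 9.66%, 9.72% and 11.5% in WT_CL, ERRKO_PBS and ERRKO_CL. In WT_CL the endothelial sums were 656 to 715, in ERRKO_PBS 616 to 663 and in ERRKO_CL 579 to 665, so only WT_PBS replicates 1 and 2 lay clearly above the rest. The calls that rest on WT_PBS are therefore also given without replicate 3, with the named endothelial genes whose call then changed. This choice was made after the levels were seen. Leaving out the lowest library raises the WT_PBS mean of most of these genes, so larger falls from WT_PBS follow from the choice itself. For the genotype comparison under PBS and the agonist in WT they are also given without replicate 1. In bulk tissue, fewer endothelial cells and less RNA per endothelial cell cannot be told apart.

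**Figure D1:**
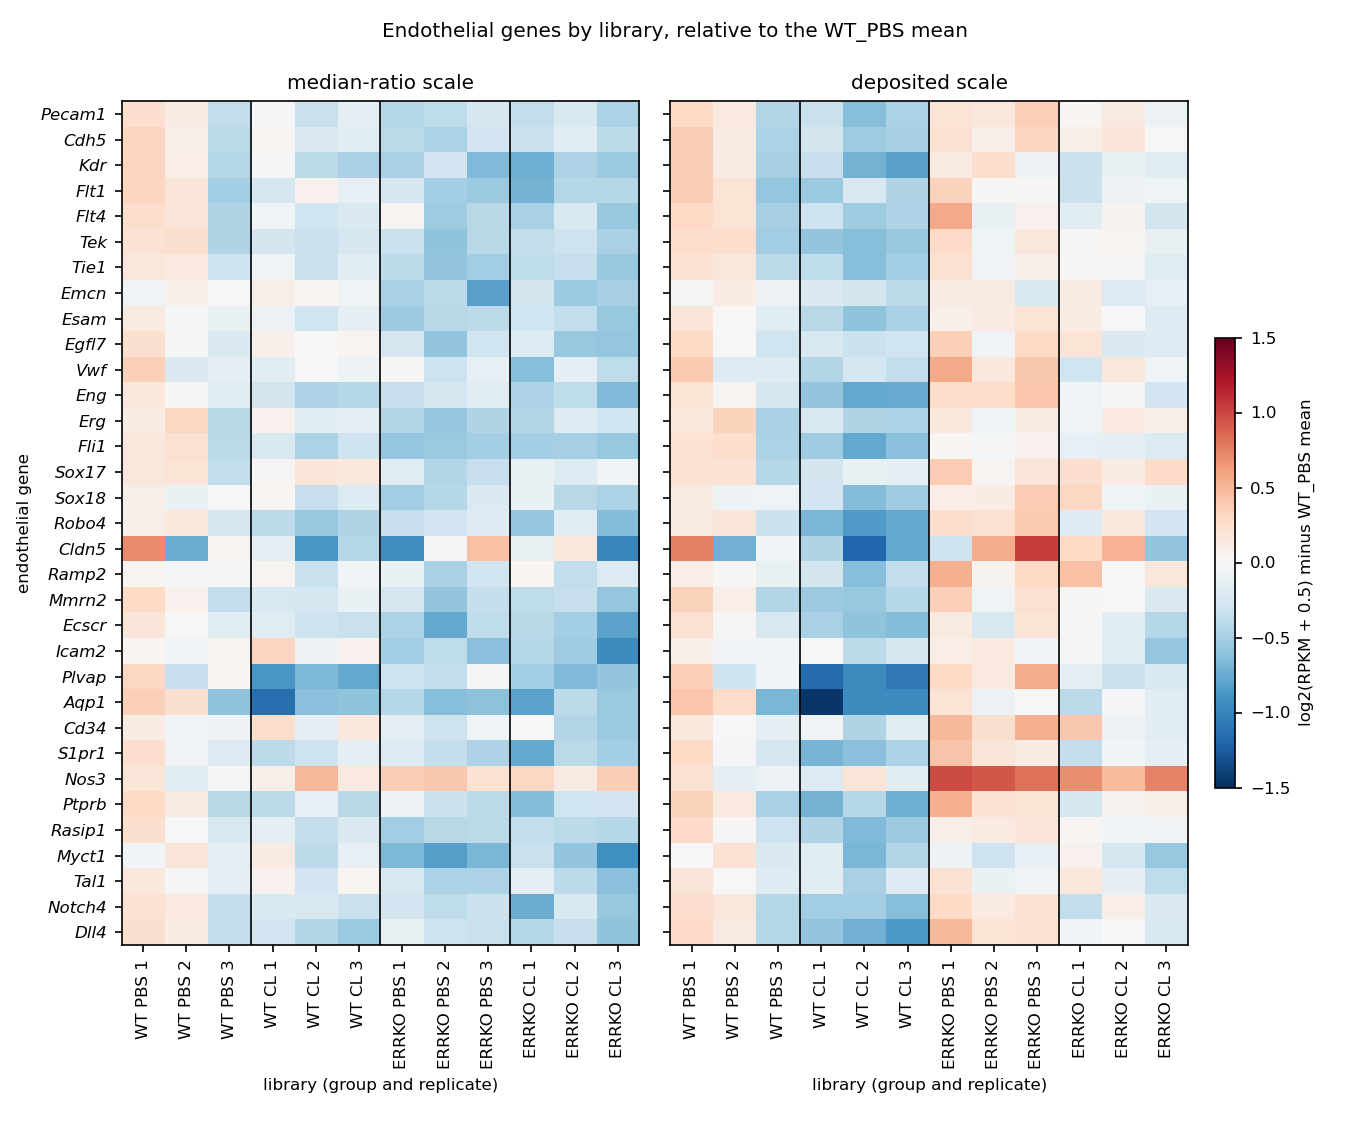
Heat maps of the 33 endothelial genes (rows) in the 12 libraries (columns), coloured by the log2 difference from the WT_PBS mean on the median-ratio scale and on the deposited scale. On the median-ratio scale WT_PBS replicate 1 is above and replicate 3 below the group mean for most genes, and the ERRKO libraries are mostly below it, while on the deposited scale the ERRKO libraries are mostly not.

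The first comparison asked how loss of both receptors in adipocytes went with endothelial transcripts in PBS-treated mice. On the median-ratio scale 12 of the 33 endothelial genes fell in ERRKO_PBS against WT_PBS and none rose (limma adjusted p under 0.05), where 18.6% of all genes tested fell. Their median difference was -0.39 (log2), against 0.00 for all genes, and 32 of 33 were negative. The calls took in surface and junction proteins (Emcn, Esam, Icam2), an angiopoietin-pathway receptor pair (Tie1, Tek), transcription factors (Erg, Fli1, Sox18) and regulators of vessel form (Rasip1, Egfl7, Ecscr, Myct1). None of these 12 calls was made on the deposited scale, where the median endothelial gene was 0.20 higher against 0.53 higher for all genes. The 12 therefore fell relative to the typical gene, not in deposited RPKM.

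Emcn encodes endomucin, a mucin-like surface protein of capillary and venous endothelium. It stood at 16.1, 17.9 and 16.8 scaled RPKM in WT_PBS and at 11.9, 12.7 and 9.38 in ERRKO_PBS. Every ERRKO_PBS library lay below every WT_PBS library, and the difference was -0.57 ± 0.12 (log2, SE, limma adjusted p = 0.00234). Esam stood at 39.4, 35.0 and 33.3 in WT_PBS and at 24.4, 26.7 and 27.2 in ERRKO_PBS. The groups again did not overlap, and the difference was -0.45 ± 0.10 (limma adjusted p = 0.00381). Myct1, a membrane protein enriched in endothelium, had the largest difference of the 33, -0.73 ± 0.16 (limma adjusted p = 0.00426). Its levels were 9.32, 11.1 and 8.63 in WT_PBS and 5.85, 5.21 and 5.79 in ERRKO_PBS, again without overlap. Ecscr, a surface protein that regulates endothelial migration and survival, stood at 12.5, 11.0 and 9.70 in WT_PBS and 7.79, 6.27 and 8.35 in ERRKO_PBS, a difference of -0.54 ± 0.13 (limma adjusted p = 0.00793). In deposited RPKM Emcn stood at 14.9, 16.3 and 14.2 RPKM in WT_PBS and 16.5, 16.6 and 12.7 in ERRKO_PBS, with overlap. The 4 genes differed by 0.01, 0.14, -0.17 and 0.03 (log2) on that scale, in the order named, with limma adjusted p from 0.254 to 0.962.

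Among the angiopoietin-pathway receptors, Tie1 stood at 34.6, 34.0 and 24.6 in WT_PBS and 23.2, 20.2 and 21.2 in ERRKO_PBS. The difference was -0.50 ± 0.13 (limma adjusted p = 0.00995), and the groups were separate by a narrow margin, since WT_PBS replicate 3 came close. Tek stood at 18.5, 18.8 and 11.5 in WT_PBS and 12.5, 10.3 and 11.8 in ERRKO_PBS. Here the groups overlapped, and the difference of -0.45 ± 0.16 (limma adjusted p = 0.042) lost its call in 11 of the 12 fits that left out 1 library. The VEGF receptor genes did not pass with all 12 libraries. Kdr stood at 40.6, 34.8 and 24.0 in WT_PBS and 22.9, 26.5 and 20.2 in ERRKO_PBS (-0.48, limma adjusted p = 0.0616), and Flt1, the decoy-like VEGF receptor 1, at 18.0, 16.3 and 9.88 and at 11.8, 9.91 and 9.52 (-0.44, limma adjusted p = 0.0869). In both, WT_PBS replicate 3 lay within the ERRKO_PBS values. Without that library both were called lower, Kdr at -0.69 (limma adjusted p = 0.00553) and Flt1 at -0.70 (limma adjusted p = 0.00195). Neither was called without WT_PBS replicate 1.

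The defining junction genes behaved like the VEGF receptors. Pecam1 stood at 61.6, 56.2 and 40.01 in WT_PBS and 38.5, 39.7 and 43.6 in ERRKO_PBS, a difference of -0.35 ± 0.15 that did not pass (limma adjusted p = 0.0835). Cdh5 stood at 84.9, 71.9 and 51.4 in WT_PBS and 51.1, 48.7 and 55.7 in ERRKO_PBS (-0.39, limma adjusted p = 0.0697). Vwf stood at 4.13, 2.61 and 2.82 in WT_PBS and 3.18, 2.43 and 2.85 in ERRKO_PBS (-0.14, limma adjusted p = 0.559), so its groups overlapped throughout. In Pecam1 and Cdh5 the overlap came from WT_PBS replicate 3. Without it Pecam1 was called lower at -0.53 (limma adjusted p = 0.00339) and Cdh5 at -0.59 (limma adjusted p = 0.00193). Both stayed without a call when WT_PBS replicate 1 was left out instead.

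Transcription factors on the list gave 3 calls of 5. Fli1, an ETS factor, differed by -0.55 ± 0.14 (limma adjusted p = 0.0106), Erg, the ETS factor most typical of endothelium, by -0.49 ± 0.16 (limma adjusted p = 0.0285) and Sox18, a SOXF factor of vessel and lymphatic development, by -0.39 ± 0.13 (limma adjusted p = 0.0329). Erg stood at 10.7, 12.3 and 7.23 in WT_PBS and 7.08, 6.42 and 7.05 in ERRKO_PBS, so that it was separate only by the gap between 7.23 and 7.08. The SOXF factor Sox17 and Tal1 did not pass. Of the remaining calls, Rasip1, a regulator of vessel lumens, differed by -0.45 ± 0.11 (limma adjusted p = 0.0083), Icam2, a leukocyte adhesion molecule, by -0.50 ± 0.14 (limma adjusted p = 0.0146) and Egfl7 by -0.39 ± 0.14 (limma adjusted p = 0.0475). In GRCm38, 42.9% of the exon bases of Rasip1 and 11.2% of those of Egfl7 overlap other genes, and whether counting used strand is unknown here, so both values are uncertain. The same holds for Ramp2 (33.4%), Sox17 (16.8%) and Dll4 (5.56%).

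Nos3, the endothelial nitric oxide synthase that dilates vessels, was the exception in direction. It stood at 9.15, 7.10 and 7.89 scaled RPKM in WT_PBS and at 10.5, 10.7 and 9.50 in ERRKO_PBS, with every ERRKO_PBS library above every WT_PBS library. Its difference was 0.33 ± 0.13 and did not pass (limma adjusted p = 0.0589). In deposited RPKM it was 0.90 ± 0.13 (limma adjusted p = 8.64e-05). With the libraries scaled to the 33 endothelial genes themselves, a choice made after seeing the data, Nos3 was the only one called, at 0.71 (limma adjusted p = 0.00605), where 38.0% of all genes tested were called higher. The Nos3 value is uncertain, because 32.3% of its exon bases overlap other genes, among them Atg9b on the other strand. In deposited RPKM 3 endothelial genes rose in ERRKO_PBS, where 66.3% of all genes tested rose: Nos3, Eng (0.33, limma adjusted p = 0.0254) and Cd34 (0.42, limma adjusted p = 0.0288).

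Of the 12 calls, 7 (Tie1, Emcn, Esam, Fli1, Ecscr, Rasip1 and Myct1) remained in each of the 12 fits that left out 1 library, and without WT_PBS replicate 3 the count was 25, where 18.3% of all genes tested fell. Besides Tek, Egfl7 lost its call in 10 of the 12 (highest limma adjusted p = 0.171), Erg in 5 (0.114) and Sox18 in 4 (0.116), without WT_PBS replicate 3 among them, while Icam2 lost it only without ERRKO_PBS replicate 3 (0.0553). Without WT_PBS replicate 1, Tie1, Emcn, Esam, Fli1, Ecscr, Icam2, Rasip1 and Myct1 were called lower and Nos3 higher (0.42, limma adjusted p = 0.0325). In that fit 30.3% of all genes tested were called in either direction. DESeq2 on recovered reads called 20, of which 19 lower (19.3% of all genes tested were lower), and edgeR on those reads 12, of which 11 lower (17.1%). Groups did not overlap for 14 endothelial genes in the lower direction, where 23.1% of all genes tested did not, and for 1 in the higher direction (21.9%). Library size and the sum of fibroblast and preadipocyte genes were higher in ERRKO_PBS than in WT_PBS, while the sums of muscle genes overlapped. The sum of 12 fibroblast and preadipocyte genes was 323 to 550 scaled RPKM in WT_PBS and 736 to 866 in ERRKO_PBS, carried by Dpt, at 48.2 to 102 and 322 to 353, and 1 of the 12 rose, or all 12 on the deposited scale. The sum of 12 skeletal muscle genes was 5.44 to 313 in WT_PBS and 111 to 3350 in ERRKO_PBS. Of these 12 muscle genes none was called, and 11 were called higher on the deposited scale. Their part in the endothelial result was not tested. Without the 2 libraries highest in muscle transcripts (replicate 3 of ERRKO_PBS and of ERRKO_CL, an alternative chosen after seeing the data) 9 of the endothelial genes fell, as did 14.9% of all genes tested.

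**Figure D2:**
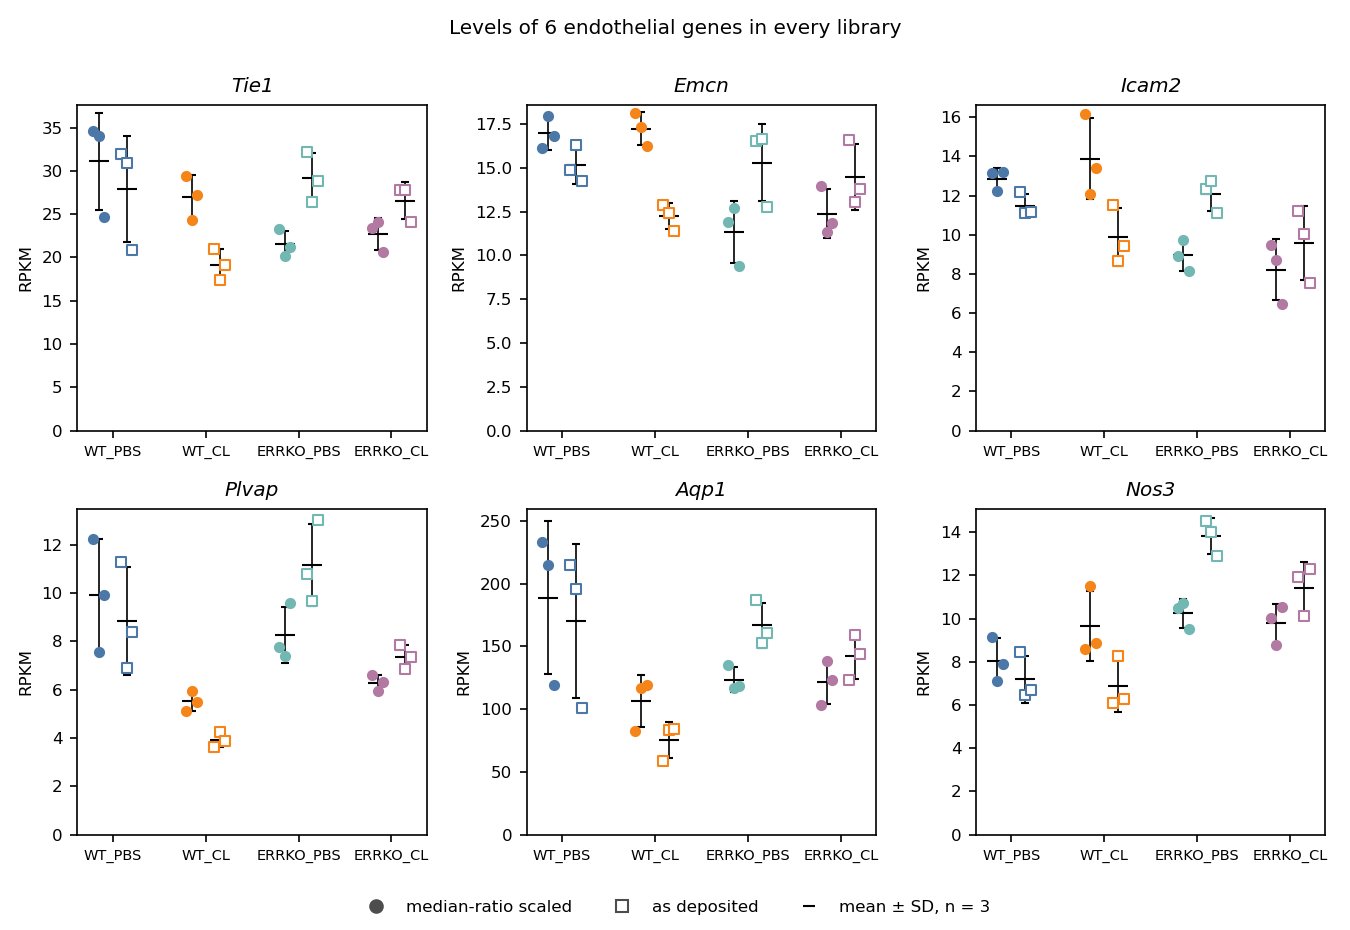
Levels of 6 endothelial genes (Tie1, Emcn, Icam2, Plvap, Aqp1 and Nos3) in each library, as points, with group means and SD (n = 3), in RPKM on the median-ratio scale and on the deposited scale. On the median-ratio scale Emcn and Icam2 are lower in both ERRKO groups without overlap, Plvap is lower in WT_CL than in WT_PBS, and WT_PBS replicate 3 is low for Tie1 and Aqp1.

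Under CL the same question gave fewer calls. On the median-ratio scale 5 endothelial genes fell in ERRKO_CL against WT_CL and none rose, where 21.6% of all genes tested fell, and their median difference was -0.23 against 0.01 for all genes. The share called was thus below that of all genes. None of these 5 was called lower on the deposited scale, and 22 others of the 33 rose, where 70.5% of all genes tested rose, with a median of 0.46 against 0.63 for all genes. This comparison shares no library with the one under PBS, but both use a common estimate of spread from all 12 libraries.

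Icam2 had the smallest p. It stood at 16.2, 12.1 and 13.4 scaled RPKM in WT_CL and 9.45, 8.72 and 6.45 in ERRKO_CL, with no overlap and a difference of -0.73 ± 0.14 (limma adjusted p = 0.00117). It was also the only endothelial gene called when libraries were scaled to the 33 (-0.53, limma adjusted p = 0.0238), where 11.0% of all genes tested were called lower. Its deposited RPKM was nearly level, 11.5, 8.64 and 9.44 in WT_CL and 11.2, 10.0 and 7.53 in ERRKO_CL, a difference of -0.05 (limma adjusted p = 0.762). Emcn stood at 18.1, 17.3 and 16.2 in WT_CL and 14.0, 11.3 and 11.8 in ERRKO_CL, again with no overlap (-0.46 ± 0.12, limma adjusted p = 0.00657). Emcn, Icam2, Egfl7 and Myct1 were called lower in both genotype comparisons on this scale. Egfl7 stood at 50.9, 47.8 and 49.4 in WT_CL and 41.9, 32.2 and 32.1 in ERRKO_CL (-0.48 ± 0.14, limma adjusted p = 0.0142). Myct1 stood at 10.5, 7.21 and 8.83 in WT_CL and 7.57, 6.20 and 4.84 in ERRKO_CL, which overlapped (-0.49 ± 0.16, limma adjusted p = 0.0301). Cd34, a sialomucin also carried by adipocyte precursors, differed by -0.43 ± 0.14 (limma adjusted p = 0.0327).

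The defining markers were close to each other under CL. Pecam1 stood at 51.3, 41.1 and 47.2 in WT_CL and 39.8, 44.0 and 37.2 in ERRKO_CL, and Cdh5 at 70.1, 58.5 and 61.0 and at 54.5, 60.1 and 51.8. Their differences were -0.20 (limma adjusted p = 0.298) and -0.18 (limma adjusted p = 0.368), while on the deposited scale they were 0.51 (limma adjusted p = 0.0118) and 0.53 (limma adjusted p = 0.0139). Kdr stood at 31.8, 24.4 and 23.0 in WT_CL and 19.3, 23.4 and 21.9 in ERRKO_CL, with overlap. Flt1 stood at 11.9, 15.0 and 13.1 in WT_CL and 8.52, 10.5 and 10.5 in ERRKO_CL, without overlap and without a call. It was called lower (-0.42, limma adjusted p = 0.0129) without WT_PBS replicate 3, which enters this comparison only through the common spread. Tek stood at 13.0, 12.5 and 13.3 in WT_CL and 12.2, 12.7 and 11.2 in ERRKO_CL, and Vwf at 2.72, 3.14 and 2.94 and at 1.83, 2.78 and 2.28. In these last genes the groups overlapped.

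Of the 5 calls, Emcn and Icam2 remained in all 12 fits that left out 1 library. Egfl7 was lost without ERRKO_CL replicate 2 or 3 (highest limma adjusted p = 0.0578), and Myct1 and Cd34 without WT_CL replicate 1 or 3 or ERRKO_CL replicate 2 or 3 (0.129 and 0.134). Emcn and Icam2 were also the 2 left without the 2 libraries highest in muscle transcripts, where 17.9% of all genes tested fell. Groups did not overlap for 13 endothelial genes in the lower direction (27.7% of all genes tested) and for 1, Plvap, in the higher (26.9%). Fibroblast and preadipocyte genes stood at a sum of 300 to 342 in WT_CL and 588 to 771 in ERRKO_CL, with 8 of 12 called higher (12 on the deposited scale), and skeletal muscle genes at 2.3 to 399 and 219 to 1755. Their part in the result was not tested.

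**Figure D3:**
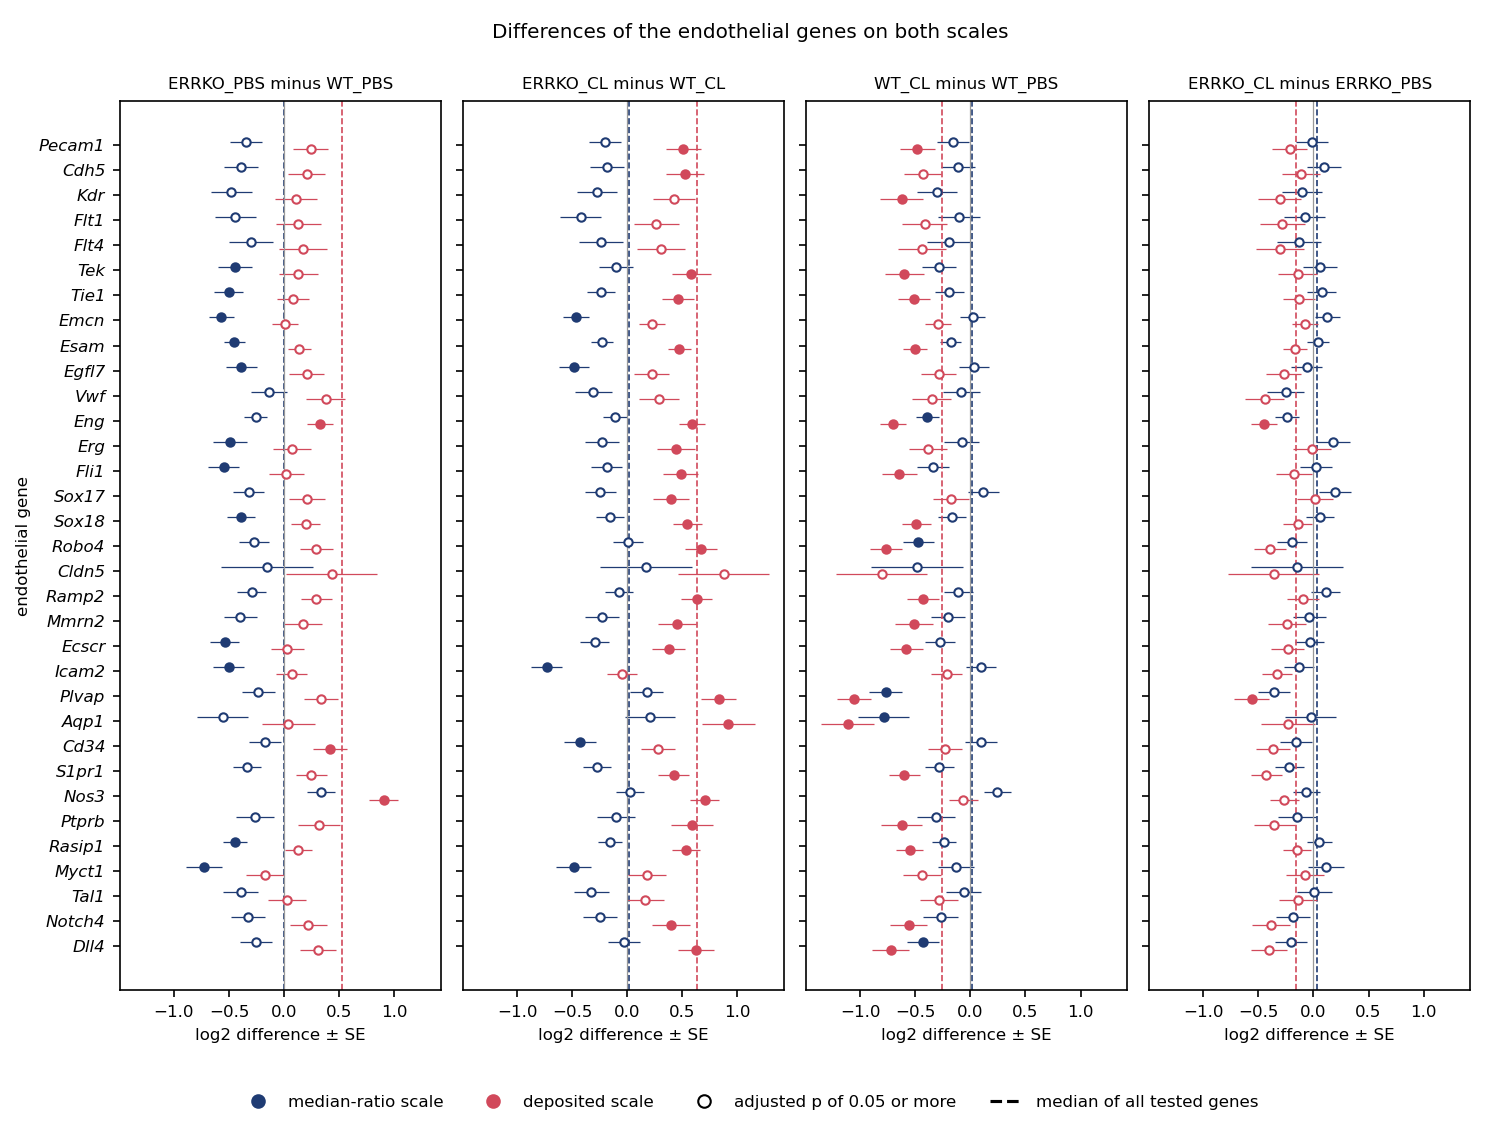
Log2 differences of the 33 endothelial genes (points, with SE bars) in the 4 pairwise comparisons, on the median-ratio and the deposited scale, with a dashed line at the median of all genes tested. The genotype differences change sign between the scales for most genes, with medians of -0.39 and 0.20 under PBS, while the agonist differences in WT are mostly negative on both, with medians of -0.19 and -0.50.

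The agonist was then compared with PBS within WT, which shares the WT_PBS libraries with the first comparison. On the median-ratio scale 5 endothelial genes fell in WT_CL (Plvap, Eng, Robo4, Aqp1 and Dll4) and none rose, where 12.2% of all genes tested fell. The share of the 33 called lower was thus close to that of all genes. The median difference was -0.19 against 0.02 for all genes, and 27 of 33 were negative. All 5 calls were also made on the deposited scale, where 19 endothelial genes fell, where 38.1% of all genes tested fell, with a median of -0.50 against -0.26. These 5 calls had the same direction on both scales, with deposited differences of -1.06 for Plvap, -0.71 for Eng, -0.77 for Robo4, -1.11 for Aqp1 and -0.72 for Dll4.

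Plvap encodes the diaphragm protein of capillary fenestrae and caveolae, which controls vessel permeability. It stood at 12.2, 7.57 and 9.91 scaled RPKM in WT_PBS and at 5.10, 5.93 and 5.50 in WT_CL, with no overlap. The difference was -0.77 ± 0.15 (limma adjusted p = 0.00251) on the median-ratio scale, and its SE on the deposited scale was 0.16 (limma adjusted p = 0.000335). It was the only one of the 5 calls that remained in every fit that left out 1 library, and the only one made with libraries scaled to the 33 genes (-0.55, limma adjusted p = 0.0375), where 3.44% of all genes tested were called lower. Eng, endoglin, a co-receptor for BMP9 and TGFβ signals on endothelium, stood at 25.2, 22.8 and 19.8 in WT_PBS and 18.4, 16.2 and 16.6 in WT_CL. The groups were separate, and the difference was -0.39 ± 0.11 (limma adjusted p = 0.0161). Robo4, an endothelial guidance receptor that stabilises vessels, stood at 10.5, 11.0 and 8.21 in WT_PBS and 7.38, 6.47 and 7.04 in WT_CL (-0.47 ± 0.14, limma adjusted p = 0.0217), again separate.

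Aqp1 had the largest difference of the 33 in this comparison, with a wide spread behind it. It stood at 233, 215 and 119 in WT_PBS and 82.3, 117 and 120 in WT_CL, so WT_PBS replicate 3 lay inside the WT_CL range. The difference was -0.79 ± 0.23 (limma adjusted p = 0.0222). Dll4, the Notch ligand of sprouting and arterial endothelium, differed by -0.43 ± 0.15 (limma adjusted p = 0.0436), with levels of 10.1, 9.14 and 6.47 in WT_PBS and 6.79, 6.08 and 5.57 in WT_CL. Pecam1, at -0.16 (limma adjusted p = 0.446), was not called. Aqp1 lost its call without WT_PBS replicate 1 or 2 or WT_CL replicate 1 (highest limma adjusted p = 0.0907), Eng in 3 of the 12 fits (0.0619), Robo4 in 4 (0.087) and Dll4 in 8 (0.157). Without WT_PBS replicate 3, 14 endothelial genes fell, where 12.2% of all genes tested did, among them Aqp1 at -1.09 (limma adjusted p = 0.000747) and Pecam1 at -0.34 (limma adjusted p = 0.0351). Without WT_PBS replicate 1 only Plvap did (-0.61, limma adjusted p = 0.00845), where 11.1% of all genes tested fell. Groups did not overlap in the lower direction for 4 endothelial genes, Eng, Robo4, Ecscr and Plvap, where 18.6% of all genes tested did not. That share of the 33 was below the share of all genes.

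Other marker lists also fell in WT_CL. Of 11 macrophage genes 9 fell, with sums of 246 to 469 in WT_PBS and 139 to 179 in WT_CL, and 4 of 4 erythroid genes tested fell, with sums of 415 to 454 and 97.7 to 303. Of 6 lymphatic genes tested 4 fell, with sums of 17.7 to 20.0 and 7.53 to 11.5, while the defining lymphatic genes Prox1 and Reln were below 0.5 RPKM on average. The sum of 9 adipocyte genes, by far the largest of them Fabp4, was 12546 to 18188 in WT_PBS and 20686 to 22118 in WT_CL. Of the 9, 2 were called higher. Their part in the endothelial result was not tested.

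Within ERRKO, where the ERRKO_PBS and ERRKO_CL libraries are shared with the genotype comparisons, limma called 0 of the 33 endothelial genes on the median-ratio scale, and edgeR and DESeq2 also called 0. At an unadjusted p under 0.05 limma had 2, Plvap and Eng. Of all genes tested 10.6% were called in either direction, and the median endothelial difference was -0.04 against 0.03. Plvap stood at 7.77, 7.39 and 9.58 scaled RPKM in ERRKO_PBS and 6.61, 5.95 and 6.31 in ERRKO_CL, without overlap (-0.36 ± 0.15, limma adjusted p = 0.154). Eng stood at 17.7, 18.7 and 19.9 in ERRKO_PBS and 16.2, 17.2 and 14.0 in ERRKO_CL, also without overlap (-0.24 ± 0.11, limma adjusted p = 0.177). Both were called lower on the deposited scale, where 13.7% of all genes tested fell, at -0.56 (limma adjusted p = 0.0308) and -0.45 (limma adjusted p = 0.0245). Aqp1 stood at 135, 117 and 118 in ERRKO_PBS and 103, 138 and 123 in ERRKO_CL, with overlap. Groups were separate in the lower direction for 3 endothelial genes, Plvap, Eng and Dll4 (12.4% of all genes tested), and in the higher direction for Erg (19.7%).

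Whether the response to the agonist differed between genotypes was tested by the interaction, the ERRKO difference minus the WT difference. Limma called 0 of the 33 endothelial genes, as did edgeR and DESeq2, and 1 had an unadjusted p under 0.05, where 3.87% of all genes tested were called. The median was 0.20 against 0.00 for all genes. That gene was Aqp1, at 0.76 ± 0.32 (limma adjusted p = 0.232). Plvap differed by 0.41 ± 0.21 (limma adjusted p = 0.328), so that a fall called in WT and not in ERRKO was not shown to differ between them. Without WT_PBS replicate 3, where 6.53% of all genes tested were called, 3 endothelial genes were, Aqp1 at 1.07 (limma adjusted p = 0.0199), Fli1 at 0.56 (limma adjusted p = 0.0182) and Tek at 0.57 (limma adjusted p = 0.0229). With all libraries in the fit no endothelial gene was called, and none was called without WT_PBS replicate 1.

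Genes around the list were read the same way, from lists of names given by role. Of 27 other endothelial genes tested, 11 fell and 1 rose in ERRKO_PBS, where 15.6% of all genes tested rose, with a median of -0.39, as for the 33. In deposited RPKM 4 of the 27 rose and 1 fell, with a median of 0.15. Palmd, a palmdelphin gene, fell by 1.16 on the log2 scale (limma adjusted p = 0.000826) and remained lower on the deposited scale (-0.56, limma adjusted p = 0.0189). Tspan7, a tetraspanin, differed by -0.53 (limma adjusted p = 0.001) and by 0.06 on the deposited scale. The gene that rose was Cav1, which encodes caveolin 1 of endothelial and adipocyte caveolae, at 343, 393 and 399 in WT_PBS and 633, 662 and 603 in ERRKO_PBS (0.74 ± 0.12, limma adjusted p = 0.000535). In ERRKO_CL 6 of the 27 fell and 1 rose (0 and 15 on the deposited scale), in WT_CL 5 fell and 0 rose, and in ERRKO under the agonist 0 were called.

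Among the ligands that act on the endothelial receptors, 7 of 27 tested rose and 3 fell in ERRKO_PBS, and 6 rose and 6 fell in ERRKO_CL, where 19.9% of all genes tested rose. On the deposited scale the balance was 14 higher and 1 lower under PBS and 16 higher and 1 lower under CL. Vegfa, the main ligand of Kdr, stood at 126, 129 and 90.8 scaled RPKM in WT_PBS, 96.7, 118 and 107 in WT_CL, 81.0, 115 and 68.1 in ERRKO_PBS and 78.1, 79.6 and 55.3 in ERRKO_CL. It fell in ERRKO_CL against WT_CL (-0.61 ± 0.20, limma adjusted p = 0.032), without overlap, and did not pass under PBS (-0.40, limma adjusted p = 0.151). The call under CL was lost in 3 of the 12 fits that left out 1 library (highest limma adjusted p = 0.134). Vegfb, a ligand of Flt1, stood at 133, 117 and 148 in WT_PBS and 74.6, 86.8 and 79.9 in ERRKO_PBS. It fell in ERRKO_PBS (-0.71, limma adjusted p = 0.000148), in ERRKO_CL (-0.40, limma adjusted p = 0.00668) and in WT_CL (-0.56, limma adjusted p = 0.00138). On the deposited scale the fall in WT_CL held (-0.89, limma adjusted p = 2.2e-05), while Vegfb was -0.12 under PBS and 0.32 under CL between genotypes, so its genotype differences depend on the scale. Vegfa, at 0.11 between genotypes under CL, does as well.

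Some ligands differed on both scales. Apln, the peptide apelin that acts on vessels through the receptor Aplnr, stood at 7.60, 2.81 and 4.68 in WT_CL and 1.23, 1.25 and 0.874 in ERRKO_CL. The difference was -1.69 ± 0.27 (limma adjusted p = 0.000385), and on the deposited scale -1.10 (limma adjusted p = 0.00275). In WT_PBS it stood at 2.54, 1.83 and 2.92, and its rise in WT_CL (0.84, limma adjusted p = 0.0367) was not called on the deposited scale (0.54, limma adjusted p = 0.12). The call of this rise was lost in 4 of the 12 fits that left out 1 library (highest limma adjusted p = 0.139). Fgf2, a fibroblast growth factor that stimulates endothelial growth, stood at 0.483, 0.630 and 0.719 in WT_PBS and 4.86, 3.55 and 3.75 in ERRKO_PBS. It rose in ERRKO_PBS (2.03 ± 0.17, limma adjusted p = 2.27e-06) and in ERRKO_CL (1.57, limma adjusted p = 1.45e-05). In WT_CL Fgf2 stood at 0.117, 0.361 and 0.365, below the 0.5 added before the log, and in ERRKO_CL at 1.57, 1.81 and 2.02. It fell under the agonist in WT (-0.52, limma adjusted p = 0.0355) and in ERRKO (-0.98, limma adjusted p = 0.00469). The added 0.5 understates differences at levels this low, so the sizes of the Fgf2 differences cannot be set against each other. The call in WT was lost without WT_PBS replicate 2 or 3 or WT_CL replicate 1 (highest limma adjusted p = 0.132). Slit3, a secreted guidance ligand known to act through Robo receptors, stood at 4.39, 4.19 and 3.64 in WT_PBS and 18.1, 16.0 and 17.1 in ERRKO_PBS. Its difference was 1.94 ± 0.12 (limma adjusted p = 2.89e-07) under PBS and 1.79 (limma adjusted p = 3.52e-07) under CL. It fell under the agonist in WT (-0.38, limma adjusted p = 0.0385) and in ERRKO (-0.52, limma adjusted p = 0.0216). These 2 agonist calls were lost in 5 and 3 of the 12 fits that left out 1 library (highest limma adjusted p = 0.149 and 0.0866). Both Fgf2 and Slit3 were 2.51 higher (log2) in ERRKO_PBS on the deposited scale.

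Fgf1 stood at 8.34, 4.78 and 7.72 in WT_PBS, 0.961, 2.20 and 1.52 in WT_CL, 1.36, 1.08 and 1.38 in ERRKO_PBS and 0.924, 0.831 and 1.01 in ERRKO_CL. WT_PBS was thus the only group with high levels. It fell in ERRKO_PBS (-2.04 ± 0.23, limma adjusted p = 2.57e-05) and in WT_CL (-1.86, limma adjusted p = 0.000129). Angpt1, the activating ligand of Tek, fell in WT_CL (-0.58, limma adjusted p = 0.0128, and -0.89 on the deposited scale), from 17.3, 17.8 and 17.7 to 12.7, 11.9 and 10.3. The Angpt1 call was lost without WT_CL replicate 3 (limma adjusted p = 0.0538). Angpt2, its context-dependent antagonist, had group means of 0.739 to 1.05 and no call on the median-ratio scale. Of 27 ligands tested 2 rose and 7 fell in WT_CL and 3 fell in ERRKO under the agonist (1 and 12, and 6, on the deposited scale). Of all 12249 genes tested 2218 rose and 1499 fell in WT_CL and 434 fell in ERRKO under the agonist (882 and 4671, and 1672, on the deposited scale).

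**Figure D4:**
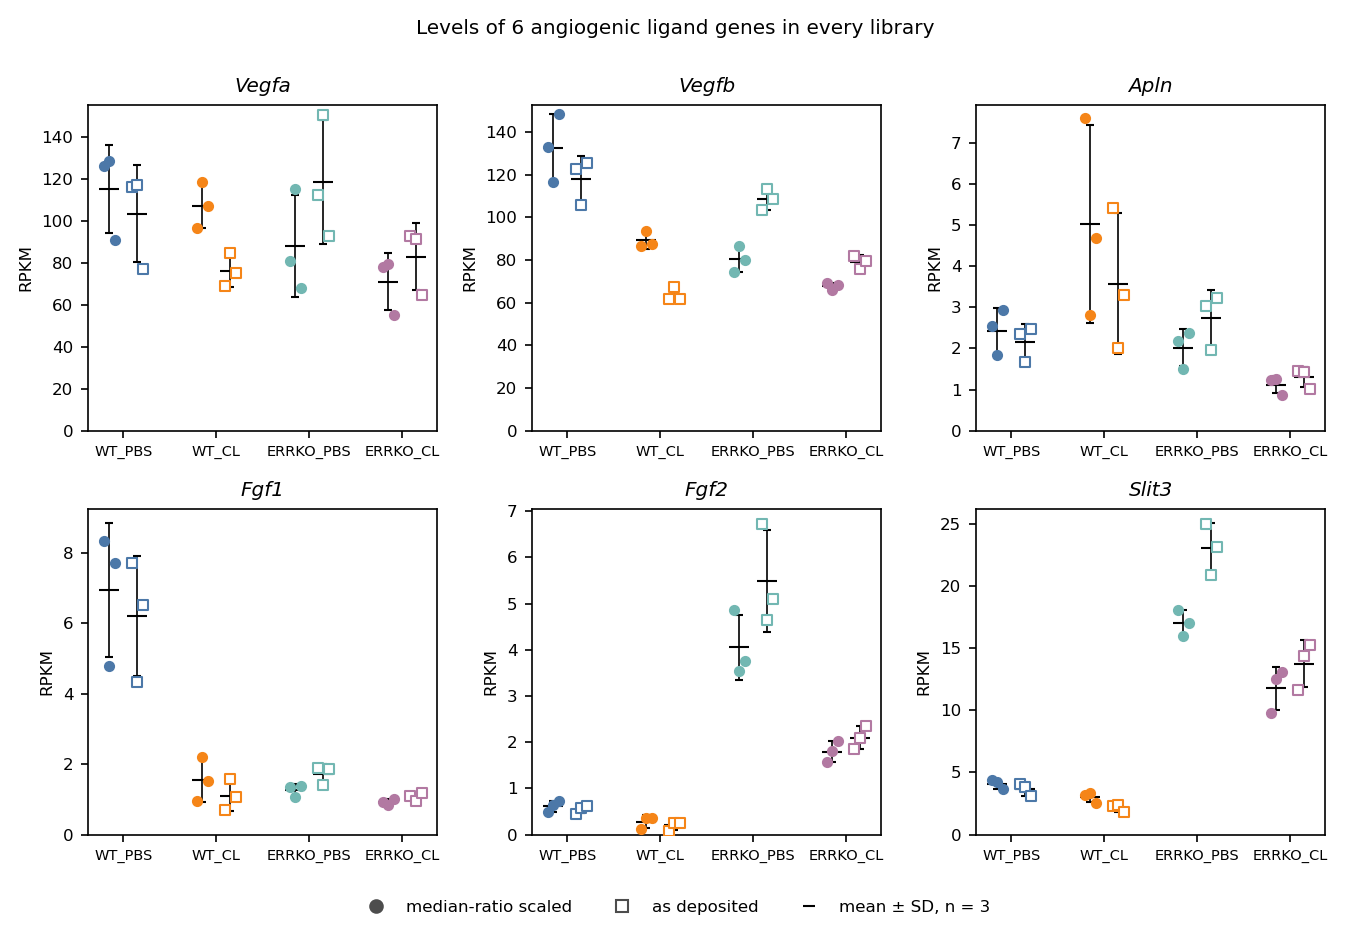
Scaled and deposited RPKM of 6 ligand genes (Vegfa, Vegfb, Apln, Fgf1, Fgf2 and Slit3) in each library, as points, with group means and SD (n = 3). Fgf2 and Slit3 are higher in both ERRKO groups on both scales, Apln is highest in WT_CL, and Fgf1 is high only in WT_PBS.

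Receptors and co-receptors outside the list gave 3 higher and 6 lower of 21 tested in ERRKO_PBS, and 2 and 4 in ERRKO_CL. The deposited scale turned this to 10 higher and 0 lower under PBS and 11 and 0 under CL. Of all genes tested, 15.6% rose and 18.6% fell in ERRKO_PBS, and 19.9% rose and 21.6% fell in ERRKO_CL. In deposited RPKM 66.3% and 70.5% rose. The lists below have the same background. Fgfr1, a receptor of Fgf1 and Fgf2, rose in ERRKO_PBS (1.18, limma adjusted p = 8.69e-06) and in ERRKO_CL (1.16, limma adjusted p = 7.09e-06), on the deposited scale as well. In WT_CL 1 of the 21 fell, Acvrl1, the ALK1 receptor that signals together with Eng (-0.51, limma adjusted p = 0.00127, and -0.79 on the deposited scale), from 7.94, 7.11 and 6.86 to 5.02, 4.87 and 5.05. Of 5 Notch targets 1 fell in ERRKO_PBS, Hey1 (-0.54, limma adjusted p = 0.00881), and 1 in WT_CL, Hes1 (-0.77, limma adjusted p = 0.0173). The Hes1 call was lost without WT_PBS replicate 2 or WT_CL replicate 2. In deposited RPKM Hey1 and Hes1 differed by -0.057, not called, and by -1.07. Hey1 is also on the arterial list, of which 4 of 11 tested fell and 1 rose in ERRKO_PBS (0 and 5 on the deposited scale) and 0 were called in WT_CL (6 lower on the deposited scale). Of 8 venous genes tested 2 fell in ERRKO_PBS (3 rose on the deposited scale) and 1 in WT_CL. Of 9 tip cell genes tested 2 rose in ERRKO_PBS, among them Mcam (1.24, limma adjusted p = 9.54e-05), which the pericyte list also holds, and 1 fell, against 4 and 0 on the deposited scale.

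Genes of capillary lipid handling and of mural cells, the pericytes and smooth muscle around vessels, were read last. Gpihbp1 encodes the protein that carries lipoprotein lipase to the capillary lumen. It stood at 102, 95.7 and 95.7 scaled RPKM in WT_PBS and 78.7, 82.8 and 79.9 in ERRKO_PBS, a difference of -0.28 ± 0.07 (limma adjusted p = 0.0126). Under CL it was -0.29 (limma adjusted p = 0.00831), but on the deposited scale Gpihbp1 rose between genotypes, by 0.31 and 0.42 (log2; limma adjusted p = 0.00263 and 0.000286), so its direction follows the scale. Lpl, lipoprotein lipase itself, which is made by adipocytes, rose under the agonist in WT (0.95, limma adjusted p = 0.000684) and in ERRKO (1.11, limma adjusted p = 0.00105), on the deposited scale too. Of the 14 genes of this list, 3 rose and 2 fell in ERRKO_PBS and 4 rose and 4 fell in ERRKO_CL, with a median of -0.02 and 0.01. In deposited RPKM 9 of the 14 rose and 0 fell in both comparisons, with a median of 0.48 and 0.59. Of 12 pericyte genes 2 rose and 3 fell in ERRKO_PBS (2 and 0 on the deposited scale). Rgs5, a regulator of G-protein signals in pericytes, fell in ERRKO_PBS (-0.65, limma adjusted p = 0.0117) and in ERRKO_CL (-0.49, limma adjusted p = 0.038). The call under CL was lost in 6 of the 12 fits that left out 1 library (highest limma adjusted p = 0.108). Kcnj8, a potassium channel of pericytes, fell in ERRKO_PBS (-0.76, limma adjusted p = 0.0045). The deposited scale gave -0.06, 0.22 and -0.19, not called. Pericyte sums were 191 to 268, 216 to 243, 228 to 237 and 230 to 242 in WT_PBS, WT_CL, ERRKO_PBS and ERRKO_CL. These sums hold Rgs5 and Mcam, which moved in opposite directions. Their means were 126 and 38.8 in WT_PBS and 77.5 and 92.5 in ERRKO_PBS. The median pericyte difference was -0.36 under PBS and -0.28 under CL, and 0.22 and 0.36 on the deposited scale. Of 8 vascular smooth muscle genes tested 1 fell in ERRKO_PBS, 0 were called in ERRKO_CL and 1 fell in WT_CL. In deposited RPKM 5 smooth muscle genes rose and 1 fell under PBS, and 4 rose under CL.

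**Figure D5:**
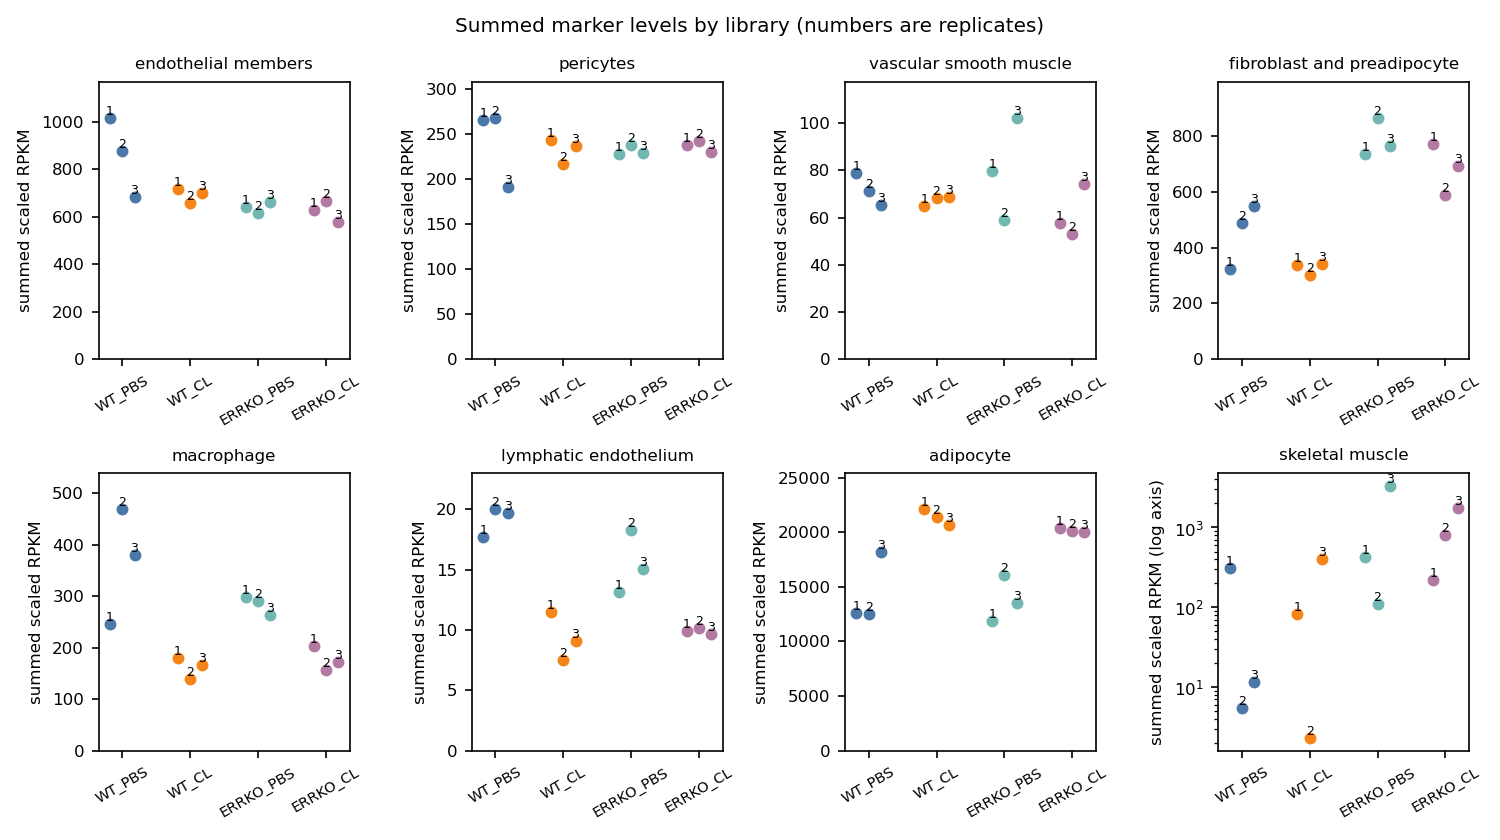
Summed scaled RPKM of 8 marker lists in each library, as points by group, with skeletal muscle on a log axis. The endothelial sum is highest in WT_PBS replicates 1 and 2 (1017 and 875) and lies between 579 and 715 in the other groups, the fibroblast sum is higher in both ERRKO groups, and the muscle sum varies by library within each group.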

How the data were processed

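RNA-seq values of brown adipose tissue were used as deposited, with group and replicate number taken from the labels. RPKM values for 24452 genes, as the authors deposited them, were the main input; 6296 genes read 0 throughout. The second table, deposited by the authors as a linear signal for 12380 genes, is named as log CPM, but 100% of its values are whole multiples of a step per library within 0.01, so reads were recovered from it. The submitters' processing notes name the aligner STAR 2.3.0, cutadapt, bcl2fastq 2.16.0.10, edgeR and the builds mm9 and mm10, with no role or order. How reads were counted, with which annotation, build and strand setting, is not given in the sources used here. A further 9 stray cells outside the sample columns were ignored.

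Libraries were scaled by the median of ratios over 14005 genes, and 12249 genes with a mean deposited RPKM of at least 0.5 were tested with limma 3.58.1 (empirical Bayes with a trend, in R 4.3.3) on log2(scaled RPKM + 0.5). All 12 libraries entered 1 fit of 4 group means, with 8 residual degrees of freedom. Benjamini-Hochberg adjustment ran over all genes tested in each comparison, with a threshold of 0.05. Fold changes on this scale understate the change of low genes. The same fit on the deposited RPKM stands beside it.

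Alternatives were quantile normalization, pseudocounts of 0.1 and 1, no filter, a mean RPKM of at least 2, only the groups compared, a replicate block, each library left out in turn, and, on recovered reads, edgeR 4.0.16 (quasi-likelihood, TMM) and DESeq2 1.42.0. The fit was tested on simulated data. Named genes were Pecam1, Cdh5, Kdr, Flt1, Tek and Vwf always, up to 4 called endothelial genes in each direction of each comparison with the smallest p, up to 3 genes of each other list with the smallest p over the 4 pairwise comparisons, and Vegfa, Vegfb, Angpt1, Angpt2, Apln, Gpihbp1 and Rgs5. Other endothelial genes named, Adgrl4 and Figf were chosen after their values were seen. The members and lists were chosen with earlier results of these data known. Overlaps of exons are from GENCODE M21 (GRCm38), and promoters are from RefSeq.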

Additional observations from a re-analysis of the deposited data

Results flagged for a closer look

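The response to CL316,243 differed between genotypes, by the interaction in limma on the median-ratio scale, for 5 of the genes read around the endothelial list, and for none of the 33 themselves. These were 2 of 27 other endothelial genes tested, 1 higher and 1 lower of 27 ligands tested, and 1 of 14 genes of lipid handling. The other lists gave no call, and 3.87% of all genes tested were called. Aqp7, a glycerol channel of adipocytes and endothelium, had the smallest p, at 1.29 ± 0.21 (log2, SE, limma adjusted p = 0.00716). In WT it stood at 61.4 ± 4.56 scaled RPKM (SD, n = 3) under PBS and 36.5 ± 0.805 under CL, and in ERRKO at 51.0 ± 7.29 and 75.8 ± 16.4, and the call remained in each of the 12 fits that left out 1 library. Fgf1 differed by 1.55 ± 0.32 (limma adjusted p = 0.0233), with WT_PBS as the only group above a mean of 1.56 scaled RPKM, and lost the call without WT_CL replicate 3 and without ERRKO_CL replicate 1 or 3 (highest limma adjusted p = 0.0564). Tspan7 differed by 0.66 ± 0.13 (limma adjusted p = 0.0219), with means of 45.4, 31.8, 31.1 and 34.9 in WT_PBS, WT_CL, ERRKO_PBS and ERRKO_CL, and lost the call without WT_CL replicate 3, ERRKO_PBS replicate 1 or ERRKO_CL replicate 1 or 3 (highest limma adjusted p = 0.0596). Adgrl4, an adhesion receptor of endothelium, differed by 0.61 ± 0.15 (limma adjusted p = 0.042), with means of 18.0, 12.3, 13.2 and 14.0 in the same order, and lost the call in 9 of the 12 (highest limma adjusted p = 0.108). Figf, which encodes the lymphatic and vascular growth factor VEGF-D, differed the other way, by -0.94 ± 0.23 (limma adjusted p = 0.0429), with means of 1.49, 2.98, 4.43 and 3.90 in that order, and lost the call in 10 of the 12 (highest limma adjusted p = 0.104). All 5 were also called on the deposited scale, at 1.41 for Aqp7, 1.57 for Fgf1, 0.77 for Tspan7, 0.72 for Adgrl4 and -0.85 for Figf.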

How the results depend on the processing

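The genotype results depend on the scale. On the deposited scale 3 endothelial genes were called under PBS and 22 under CL, all higher, and the log2 differences between genotypes changed sign for most genes named: under PBS Pecam1 was 0.24, Cdh5 0.20, Kdr 0.11, Flt1 0.13, Tek 0.13, Vwf 0.38, Emcn 0.0065, Esam 0.14, Ecscr 0.028, Tie1 0.083, Erg 0.072, Fli1 0.019, Sox18 0.20, Icam2 0.068, Rasip1 0.13, Egfl7 0.20, Eng 0.33, Cd34 0.42, Vegfa 0.19, Gpihbp1 0.31 and Tspan7 0.060, and under CL Pecam1 was 0.51, Cdh5 0.53, Emcn 0.23, Egfl7 0.22, Myct1 0.18, Cd34 0.28, Vegfa 0.11, Vegfb 0.32, Rgs5 0.22 and Gpihbp1 0.42. Deposited and median-ratio scales shared 0 calls in the genotype comparisons and 5 in WT under the agonist. On the deposited scale 19 endothelial genes were called in WT and 2 in ERRKO under the agonist, all lower. Quantile normalization left 3 calls under CL and turned Gpihbp1 (0.0067 under PBS, 0.041 under CL), Pecam1 (0.0096 under CL) and Cdh5 (0.066 under CL). With no filter 3 endothelial genes were called under CL, and with only the groups compared 3 in WT under the agonist. DESeq2 called 20 between genotypes under PBS, 1 of them higher. Scaling to the 33 genes left 1 call under PBS, higher, and 1 lower call each under CL and in WT under the agonist. Without the 2 libraries highest in muscle transcripts 2 were called under CL, and Nos3 was -0.028. The causes of these changes were not tested.

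Leaving out each library in turn gave 8 to 25 calls between genotypes under PBS, 2 to 6 under CL, 1 to 14 in WT under the agonist and 0 to 3 for the interaction. On the deposited scale these counts ran from 1 to 11, from 11 to 26 for the agonist in WT and 0 to 6 in ERRKO, with 0 to 6 for the interaction, without a moved count under CL. Vwf under PBS ran from -0.25 to 0.039, and Nos3 under CL from -0.052 to 0.15. The highest counts came without WT_PBS replicate 3, except on the deposited scale under PBS, where it was replicate 1. Replicate numbers were not treated as pairs, and deviations within groups of 3 libraries cannot settle whether they are. Correlations of deviations were -0.39 to 0.45 for 18 pairs with the same number, 7 of them over 0.1. For 36 pairs with different numbers they were -0.47 to 0.45, 10 of them over 0.1. With a replicate block the counts were 14 under PBS, 5 under CL, 5 for the agonist in WT and 0 in ERRKO, with 0 for the interaction, and 5 under PBS on the deposited scale.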
